A study of Mus musculus with 12 samples.

Results

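Chromatin accessibility was examined at 7 genes that encode surface receptors and integrin chains of macrophages: Itgam, Itgax, Itgb2, Adgre1, Mrc1, Msr1 and Cd36. The genes were chosen by name, with earlier results of these data known, and their regions by position (GRCm38, GENCODE M21 basic gene models). Every open chromatin region that overlapped the body of one of these genes, or the 20 kb on either side of it, was taken. This gave 77 regions out of 121336 in the count table. Itgam had 23 regions, Itgax 11, Itgb2 24, Adgre1 5, Mrc1 13, Msr1 3 and Cd36 8, and 10 regions lay in the windows of both Itgam and Itgax, which are neighbours on chromosome 7.

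Accessibility was measured by ATAC-seq, in which a transposase cuts and tags open DNA, in bone marrow progenitors of wild-type mice (WT) and of mice in which a regulatory element upstream of Spi1 was deleted in every cell, Spi1 being the gene of the transcription factor PU.1 (labelled UREd/d and called URE here). All mice were C57BL/6 littermates of 8 to 12 weeks. The mice were taken before leukaemia, and 2 sorted fractions were compared, each with 3 mice per genotype: LSK cells, negative for lineage markers and positive for Sca-1 and c-Kit, which hold the stem and multipotent progenitors, and granulocyte-macrophage progenitors (GMP), negative for lineage markers and Sca-1 and positive for c-Kit and CD16/32. The deletion was in the germline, so every earlier stage of the URE cells lacked the element as well. Each group was a bulk sort of progenitors, and none was a mature macrophage.

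The members fall into 3 kinds of receptor. Itgam and Itgax encode the integrin alpha chains CD11b and CD11c, and Itgb2 encodes CD18, the beta chain that both need to reach the cell surface and that pairs with other leukocyte alpha chains as well. Adgre1 encodes the adhesion G protein-coupled receptor that is the classical antigen of mouse macrophages. Mrc1 encodes the mannose receptor CD206, Msr1 the class A scavenger receptor, and Cd36 a class B scavenger receptor that takes up fatty acids and oxidised lipoprotein. PU.1 is an ETS family factor that binds purine-rich DNA around a GGAA core and is required for the myeloid lineages, and its level is known to rise as progenitors turn to the macrophage fate. In progenitors most of these receptors are low or absent at the surface, so what is read here is the chromatin around genes that are used later.

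The deleted stretch itself served as the check of the genotypes. 3 adjacent regions upstream of Spi1, at chr2:91080885-91083700, each held at most 6 counts in any URE library, against at least 115 in each of them in every WT library. Libraries held 23072701 to 62204826 counts in the regions of the table. Over the 77 regions, libraries of 1 group correlated with each other at 0.946 to 0.988 (Pearson's r of log2(CPM + 0.5), 12 pairs), and libraries of different groups at 0.293 to 0.781 (54 pairs). CPM are depth-scaled counts (TMM-normalised, on the usual scale of this unit), and 3 values given together are always replicates 1, 2 and 3. A region is called higher or lower where the edgeR quasi-likelihood test gave an adjusted p under 0.05 over all 121336 regions together with a log2 fold change beyond 1 in either direction. Fold changes are log2 values of URE over WT unless another pair is named.

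In LSK, 41 of the 77 regions were called lower in URE and 7 higher. In all regions of the count table, 23.9% of regions were called lower and 13.6% higher, so the share of lower calls among the members (53.2%) was above the background and that of higher calls (9.09%) below it. In GMP, 35 regions were called lower (45.5%, background 24.1%) and 6 higher (7.79%, background 15.6%). The median log2 fold change of the members was -1.26 in LSK and -0.86 in GMP, beside 0.14 and 0.06 over all regions. The medians of the members moved with the settings, to -0.67 and -0.16 over the members with a mean CPM of at least 2, to -0.78 and -0.46 with offsets fitted to abundance (loess), and to -1.01 and -0.51 with GC content offsets. 28 regions were called lower in both cell types (36.4%, against 18.7% of all regions), 13 in LSK alone by this threshold (16.9% against 5.11%) and 7 in GMP alone (9.09% against 5.22%). Higher calls in both numbered 3 (3.90% against 8.45%), with 4 in LSK alone (5.19% against 5.06%) and 3 in GMP alone (3.90% against 7.12%). Where loess offsets replaced the scaling, calls over the whole table shifted from 16501 higher and 29035 lower to 26330 and 22492 in LSK, and from 18974 and 29185 to 26517 and 20698 in GMP. Among the members there were then 11 higher and 36 lower in LSK and 7 and 25 in GMP. Without URE-LSK replicate 3 the higher calls in LSK numbered 4. In bulk libraries, fewer cells with an open region and less opening per cell cannot be told apart.

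The plot of the genotype effect in LSK against that in GMP shows that the members did not move as a block. Points above the line of equal effects are regions with the lower URE effect in LSK, which held for 17 of the 23 Itgam regions, 4 of 5 at Adgre1 and 5 of 8 at Cd36. Below it lay 9 of the 13 Mrc1 regions and all 3 of Msr1. The Itgb2 regions were divided, with 10 of 24 below the line.

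**Figure D1:**
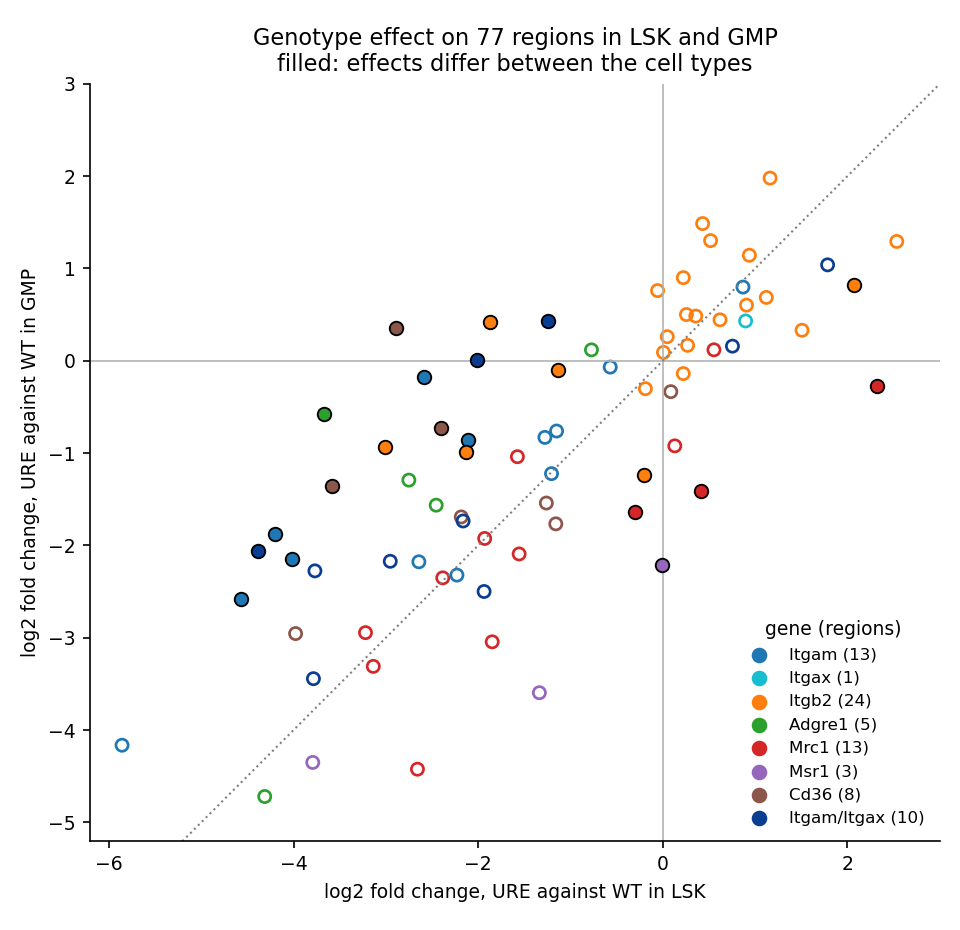
Log2 fold change of URE against WT in LSK (x axis) and in GMP (y axis) for the 77 regions, coloured by gene, with the regions shared by Itgam and Itgax in dark blue. Filled points are the 22 regions whose effects differed between the cell types by the interaction test, and the dotted line marks equal effects.

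The counts of all regions of a gene were added per library and tested in the same way over 18425 genes. The sums of Itgam, Adgre1 and Cd36 were called lower in URE-LSK (3 of 7, against 3.64% of all genes), and those of Mrc1 and Msr1 in URE-GMP (2 of 7, against 4.68%). Without URE-GMP replicate 2, the sums called lower in GMP numbered 4, as those of Itgam (-1.14) and Cd36 (-1.07) then passed the fold threshold as well. Itgax fell short of the threshold in both cell types, and Itgb2 was the one member whose sum was higher in URE in both, uncalled. Its changes were 0.15 in LSK and 0.35 in GMP, beside medians over all gene sums of 0.17 and 0.15. In LSK its change thus lay below that of the median gene.

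**Figure D2:**
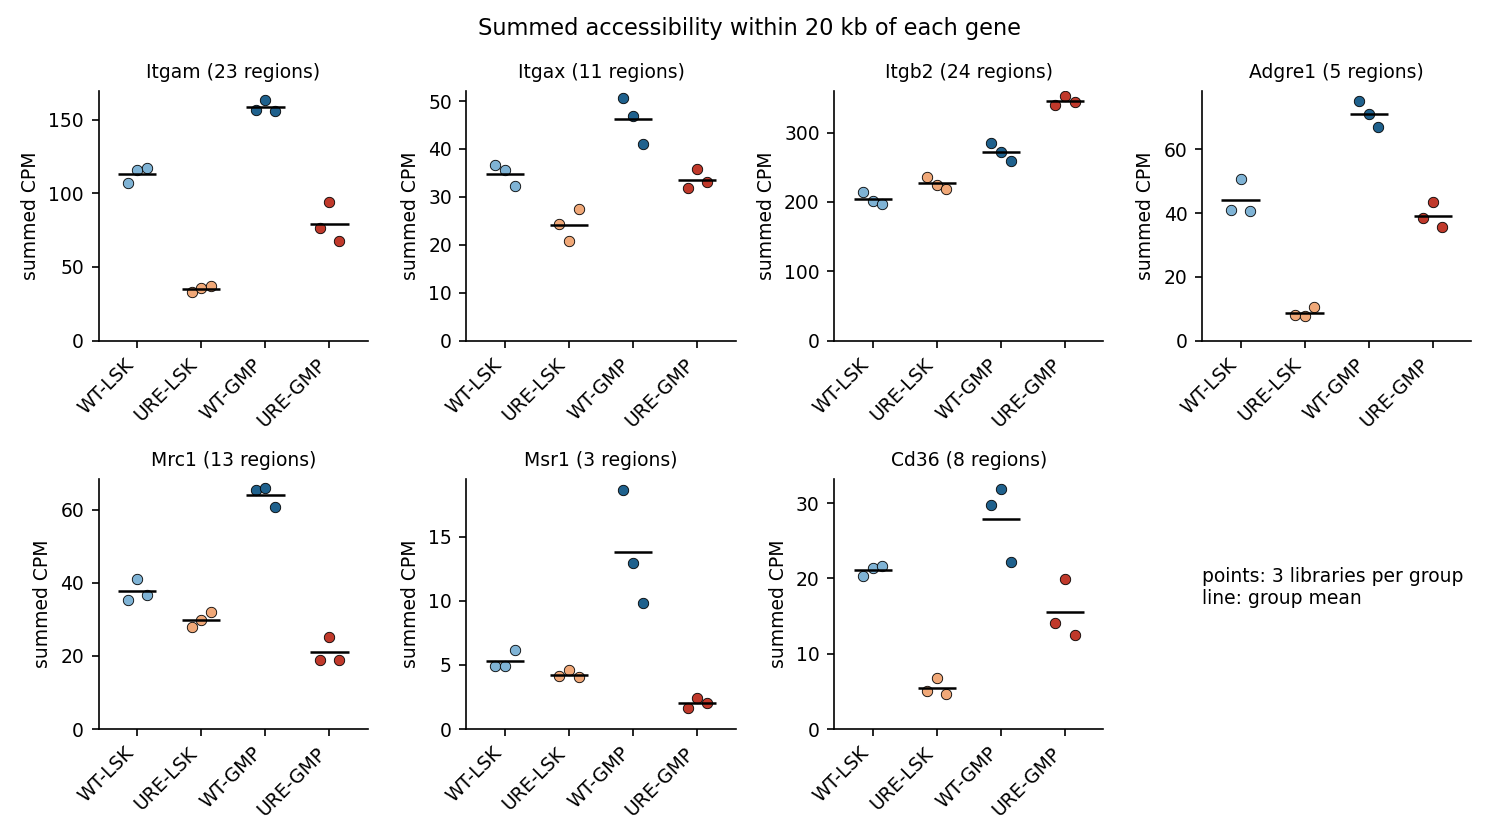
Summed CPM of all regions within 20 kb of each gene (y axis, from 0) in the 4 groups. Points are the 3 libraries of a group and lines their mean. Itgb2 is the panel in which each URE group lies above the WT group of the same cell type. The URE-LSK points are the lowest of the 4 groups for Itgam, Itgax, Adgre1 and Cd36.

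For Itgam, Msr1 and Cd36, the region with the smallest p for a loss in LSK holds the 8-base sequence GAGGAAGT, a form of the PU.1 binding motif. These 3 regions are shown because the factor whose gene lost its element is known to bind such letters. Their levels are given with each gene: in GMP the Itgam and Msr1 regions were called lower as well, and the Cd36 region was not called. The 3 printed regions are among the 15 named for the smallest p in a genotype comparison. The other 12, among them those of Itgb2, Adgre1 and Mrc1, lack these letters. Each is printed 5′ to 3′ along the plus strand of GRCm38, with every copy of the motif, or of its reverse complement ACTTCCTC, in capitals.
Itgam intron, chr7:128115454-128115719: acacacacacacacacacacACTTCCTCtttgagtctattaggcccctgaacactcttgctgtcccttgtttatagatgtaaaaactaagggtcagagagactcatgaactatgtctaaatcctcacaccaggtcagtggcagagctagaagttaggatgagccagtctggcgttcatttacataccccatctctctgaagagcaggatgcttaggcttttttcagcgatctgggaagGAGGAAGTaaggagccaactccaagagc
Msr1 intron, chr8:39594899-39595046: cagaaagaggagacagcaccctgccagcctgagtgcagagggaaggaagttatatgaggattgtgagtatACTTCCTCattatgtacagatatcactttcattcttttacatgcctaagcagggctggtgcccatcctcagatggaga
Cd36 intron, chr5:17839658-17839805: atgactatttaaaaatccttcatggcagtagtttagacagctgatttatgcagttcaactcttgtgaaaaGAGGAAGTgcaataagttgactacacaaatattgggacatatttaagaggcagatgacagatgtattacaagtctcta
The Itgam stretch holds 2 copies in opposite orientation, the first of them directly after a run of alternating a and c. The Msr1 and Cd36 stretches hold 1 copy each. A match of these letters describes the sequence and does not show that PU.1 was bound there.

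Itgam, the CD11b gene (chr7:128062640-128118491, plus strand), was less accessible over most of its locus in URE-LSK, and over fewer of its regions in URE-GMP. Its summed level was 107, 116 and 117 CPM in WT-LSK against 32.8, 36.0 and 37.1 in URE-LSK, while GMP held 157, 163 and 156 in WT against 76.5, 94.4 and 67.6 in URE. The genotypes did not overlap in either cell type. The change was -1.68 (SE 0.09, adjusted p = 2.8e-09) in LSK and -0.99 (SE 0.09, adjusted p = 1.8e-07) in GMP, the latter just short of the fold threshold, which it passed without WT-LSK replicate 1, 2 or 3, WT-GMP replicate 1 or URE-GMP replicate 2 (down to -1.14 without the last). By region, 19 of 23 were called lower in LSK, with a median over the 23 of -2.16. In GMP 13 were, all of them among the 19, and the median was -1.74.

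The Itgam promoter region (chr7:128062517-128062823) read 7.64, 8.53 and 9.37 CPM in WT-LSK and 0.262, 0.642 and 0.491 in URE-LSK. In GMP it read 8.99, 9.06 and 8.27 CPM in WT and 2.45, 3.30 and 1.33 in URE. The promoter was open to a like level in both WT cell types, with a log2 fold change of GMP over LSK of 0.04 (SE 0.26, adjusted p = 0.90), and in URE it was 18.4-fold lower in LSK and 3.68-fold lower in GMP. On the log2 scale the LSK change was -4.20 (SE 0.33, adjusted p = 3.9e-08) and the GMP change -1.88 (SE 0.27, adjusted p = 2.3e-05), and their difference was 2.32 (adjusted p = 0.0016). The region with the lowest fitted ratio of all members in LSK lay 9398 bases upstream of the start (chr7:128053101-128053383, intergenic). It held 123, 88 and 107 counts in WT-LSK and 2, 2 and 2 in URE-LSK, a ratio of 58.8 with a 95% interval of 26.7 to 161 for counting error only. In GMP the same region fell from 2.05, 3.40 and 3.11 CPM in WT to 0.194, 0.156 and 0.121 in URE, a change of -4.16 (adjusted p = 1.1e-07), so this upstream region was nearly closed in both URE groups.

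The most accessible Itgam region lay 13653 bases upstream (chr7:128048717-128049258, intergenic) and holds the PU.1, RUNX, CEBP and AP-1 motifs. It read 22.8, 26.8 and 29.7 CPM in LSK of WT mice and 5.09, 5.39 and 6.41 in those of URE mice, and in GMP 21.2, 27.3 and 30.2 and 4.74, 7.36 and 3.59 in the same order. It fell in both cell types, by a log2 fold change of -2.23 in LSK and -2.32 (adjusted p = 3.8e-07) in GMP, and the difference between these was -0.09 (SE 0.30, adjusted p = 0.87). A different course was taken by an intronic region 3142 bases into the gene (chr7:128065630-128065935), which also holds the PU.1 motif. Its level fell from 4.51, 4.77 and 4.81 CPM in WT-LSK to 0.452, 1.12 and 0.790 in URE-LSK, and it read 8.87, 10.2 and 7.74 in WT-GMP against 8.31, 8.86 and 6.64 in URE-GMP. The genotypes were apart in LSK (-2.59, adjusted p = 4.2e-07) and overlapped in GMP (-0.17, adjusted p = 0.50), and the difference between the effects, 2.42 (adjusted p = 2.2e-04), had the smallest p of the Itgam regions. In all, 8 of the 23 regions had a URE effect that was called higher, that is less of a loss, in GMP than in LSK.

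**Figure D3:**
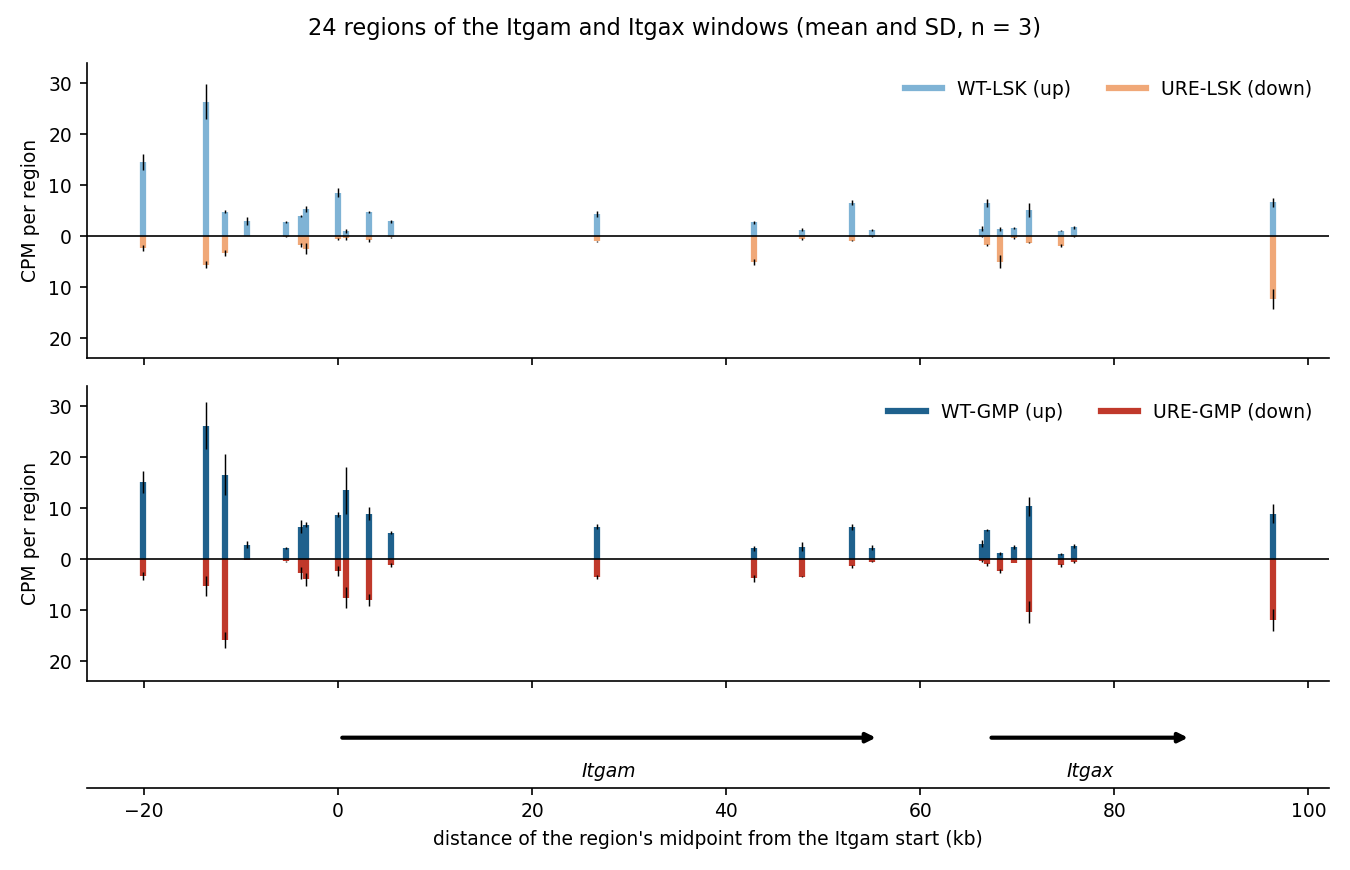
Mean CPM with SD (n = 3) of the 24 regions of the Itgam and Itgax windows against the distance of the region's midpoint from the Itgam start in kb, in LSK (upper) and GMP (middle), with WT drawn upward and URE downward from 0 on the same scale; arrows below mark the gene bodies. In the LSK panel the downward bars are shorter than the upward ones over most of Itgam, and in the GMP panel several of them, such as those close to the Itgam start, are closer to the WT height.

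Itgax, the CD11c gene (chr7:128129547-128150657, plus strand), lies downstream of Itgam, and its window shares 10 of 11 regions with it. Its regions summed to 36.6, 35.6 and 32.2 CPM in WT-LSK against 24.2, 20.8 and 27.4 in URE-LSK, while GMP held 50.7, 46.8 and 41.1 in WT against 31.9, 35.8 and 33.0 in URE. The sums were apart in both cell types, but the changes, -0.52 (adjusted p = 5.7e-04) in LSK and -0.46 (adjusted p = 0.0011) in GMP, were under the fold threshold in this sum of losses and gains. The sum includes the most accessible region of the window, which lies inside the neighbour Itgad and read higher in URE-LSK. Over the gene body alone, without that region, the changes were -0.77 in LSK and -0.52 in GMP, under the threshold as well. 8 of the 11 regions were called lower in LSK and 6 in GMP, with medians over the 11 of -2.02 and -1.74. The Itgax promoter region (chr7:128129310-128129713) read 5.69, 6.49 and 7.22 CPM in WT-LSK and 1.57, 1.56 and 1.92 in URE-LSK, a change of -1.94 (SE 0.21, adjusted p = 9.5e-07). In GMP it read 5.73, 5.96 and 5.601 CPM in WT and 0.926, 1.32 and 0.775 in URE, a change of -2.50 (SE 0.21, adjusted p = 1.9e-07). The Itgax promoter was thus low in both URE groups.

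Among the regions that both windows share, the one with the smallest p for a loss in LSK lay in the last part of Itgam (chr7:128115283-128115833), the source of the first sequence printed above. It read 6.90, 6.93 and 5.97 CPM in LSK of WT mice and 0.833, 0.837 and 0.876 in those of URE mice, and in GMP 6.99, 6.17 and 5.76 and 1.29, 1.70 and 1.16 in the same order. Both losses were called, at -2.95 and -2.17 (adjusted p = 2.4e-07). A region past the Itgax start that covers coding exon (chr7:128130499-128131296) went the other way. It rose from 1.71, 1.67 and 1.05 CPM in WT-LSK to 6.02, 3.54 and 5.47 in URE-LSK (1.79, adjusted p = 5.6e-05), and from 1.51, 1.11 and 0.784 in WT-GMP to 2.71, 2.22 and 1.89 in URE-GMP (1.04, adjusted p = 0.0060). Its rise in GMP was near the threshold and dropped below it without WT-GMP replicate 3 (0.84) or URE-GMP replicate 1 (0.89), or where libraries were scaled by their totals alone (0.92).

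A further Itgax region (chr7:128133615-128134032), over an internal exon that also ends a shorter annotated transcript, holds the PU.1 and CEBP motifs. It read 6.74, 4.45 and 4.36 CPM in WT-LSK and 1.14, 1.31 and 1.39 in URE-LSK, and 11.8, 11.1 and 8.21 in WT-GMP against 9.73, 12.7 and 8.65 in URE-GMP. The loss was seen in LSK (-2.02, adjusted p = 2.4e-06), the genotypes overlapped in GMP (0.00, adjusted p = 0.99), and the effects differed by 2.02 (adjusted p = 5.3e-04). The most accessible region of the Itgax window lay inside the neighbouring integrin gene Itgad (chr7:128158722-128159245), at 7.37, 6.81 and 5.75 CPM in WT-LSK and 11.7, 10.8 and 14.6 in URE-LSK. It was apart between genotypes in LSK but under the fold threshold (0.90, adjusted p = 7.3e-04). In GMP the genotypes overlapped, at 10.96, 7.24 and 8.53 CPM in WT and 11.02, 10.5 and 14.4 in URE, with a change of 0.43 (adjusted p = 0.055).

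Itgb2, the gene of the common beta chain CD18 (chr10:77530252-77565686, plus strand), was not lower as a whole. Together its regions read 215, 201 and 197 CPM in WT-LSK against 237, 225 and 219 in URE-LSK, while GMP held 285, 272 and 259.8 in WT against 339, 353 and 344 in URE. The changes were small, 0.15 (adjusted p = 0.019) in LSK and 0.35 (adjusted p = 3.1e-05) in GMP, though the libraries of the genotypes did not overlap in either. In LSK the sign depended on the flanks, since over the gene body alone the change was -0.36 (adjusted p = 4.7e-04). Of the 24 regions, 4 were called lower and 5 higher in LSK, and 1 lower and 5 higher in GMP.

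The Itgb2 promoter region (chr10:77530116-77530527), which holds the PU.1 and RUNX motifs, read 13.2, 14.8 and 12.3 CPM in WT-LSK and 5.90, 6.14 and 6.26 in URE-LSK. In GMP the genotypes overlapped, with 13.6, 11.9 and 12.8 CPM in WT and 11.9, 12.8 and 11.2 in URE. The promoter was thus 2.20-fold lower in URE-LSK (-1.14, adjusted p = 2.2e-06) with no called change in GMP (-0.09, adjusted p = 0.54). The effects differed by 1.04 (adjusted p = 0.0013), close to the threshold, and by 0.99 without URE-GMP replicate 2. The region with the smallest p for a loss in LSK lay in an intron 6607 bases past the start (chr10:77536539-77537179). It read 10.5, 11.01 and 9.61 CPM in WT-LSK and 0.904, 1.90 and 1.11 in URE-LSK (-3.01, adjusted p = 8.0e-08), and 23.01, 20.8 and 17.5 in WT-GMP against 11.1, 13.2 and 7.78 in URE-GMP (-0.93, adjusted p = 0.0015). The genotypes were apart in both cell types, and the loss was larger in LSK by 2.08 (adjusted p = 6.0e-04). In GMP the change passed the fold threshold without WT-GMP replicate 3 (-1.02) or URE-GMP replicate 2 (-1.11).

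The gain with the smallest p in GMP at Itgb2 lay in an intron too. This region, 9512 bases past the start (chr10:77539627-77539901), rose from 0.971, 1.18 and 1.25 CPM in WT-LSK to 2.26, 2.09 and 3.25 in URE-LSK and from 1.26, 0.923 and 1.01 in WT-GMP to 3.62, 4.56 and 4.24 in URE-GMP. The gains were 1.16 (adjusted p = 5.8e-04) and 1.98 (adjusted p = 3.9e-06), and that in LSK fell below the threshold without WT-LSK replicate 1 (0.998) or URE-LSK replicate 3 (0.94). Upstream of the gene, at chr10:77523148-77523815, the region read 9.16, 6.80 and 8.02 CPM in WT-GMP against 3.81, 3.89 and 2.40 in URE-GMP, a change of -1.24 (adjusted p = 1.4e-04), while in LSK the genotypes overlapped at 13.3, 12.6 and 13.3 CPM in WT and 14.1, 11.7 and 8.18 in URE. The difference between the cell types there, -1.03 (adjusted p = 0.027), was near the threshold and lost it when any of 7 single libraries was left out, with values from -0.99 to -0.84 (WT-LSK replicates 1, 2 and 3, URE-LSK replicate 1, WT-GMP replicates 1 and 3 and URE-GMP replicate 3).

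Part of the Itgb2 window belongs to its neighbours: 10 of the 24 regions lay nearest to the start of Fam207a or Pttg1ip. The gain with the smallest p in LSK was at such a region, in an intron of Pttg1ip (chr10:77583701-77584447), which read 9.11, 7.14 and 8.10 CPM in LSK of WT mice and 36.5, 33.0 and 32.9 in those of URE mice, and in GMP 7.99, 6.36 and 10.8 and 15.6, 13.4 and 15.6 in the same order. It rose by 2.07 (adjusted p = 5.4e-08) in LSK, and in GMP its change was 0.82 (adjusted p = 4.2e-04), and 1.08 without WT-GMP replicate 3. The effects differed by -1.25 (adjusted p = 0.0018), which became -0.93 without WT-GMP replicate 3. The most accessible region of the window was the promoter of Pttg1ip (chr10:77581457-77582138), at 37.8 ± 3.14 CPM in WT-LSK and 48.5 ± 3.21 in URE-LSK (SD, n = 3), with changes of 0.36 and 0.48 in LSK and GMP.

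Adgre1 (chr17:57358691-57483527, plus strand) had 5 regions: 3 upstream, the promoter and 1 in an intron close to it. The summed level was 40.9, 50.5 and 40.7 CPM in WT-LSK against 7.95, 7.82 and 10.4 in URE-LSK, while GMP held 75.1, 71.1 and 67.0 in WT against 38.5, 43.5 and 35.6 in URE. The genotypes were apart in both cell types, by -2.33 (SE 0.12, adjusted p = 1.7e-09) in LSK and -0.86 (SE 0.11, adjusted p = 6.9e-06) in GMP, and the effects differed by 1.47 (adjusted p = 2.0e-05). Over the gene body alone, without the upstream regions, the change in LSK was -0.90 and the difference between cell types 0.87, both under the fold threshold. 4 of the 5 regions were called lower in LSK and 3 in GMP, and the changes of the 5 ranged from -4.31 to -0.77 in LSK and from -4.72 to 0.12 in GMP.

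The Adgre1 promoter region (chr17:57358316-57358814), with the CEBP and IRF motifs, was the one of the 5 that was called in neither cell type. It read 3.94, 5.92 and 5.57 CPM in LSK of WT mice and 2.17, 2.54 and 4.25 in those of URE mice, and in GMP 12.8, 12.4 and 11.7 and 12.8, 13.8 and 13.3 in the same order. The genotypes overlapped in both cell types, with changes of -0.77 (adjusted p = 0.0076) in LSK, under the fold threshold, and 0.12 (adjusted p = 0.64) in GMP. Without URE-LSK replicate 3 the change in LSK was -1.12 and passed. The most accessible region lay 14228 bases upstream (chr17:57344058-57344869, RUNX motif) and also had the smallest p for a loss in each cell type. It read 26.1, 27.6 and 24.4 CPM in WT-LSK and 4.997, 3.94 and 5.25 in URE-LSK (-2.45, adjusted p = 1.9e-09), and 29.3, 26.2 and 26.6 in WT-GMP against 9.06, 9.61 and 9.06 in URE-GMP (-1.56, adjusted p = 7.5e-08). Between it and the promoter, 11467 bases upstream (chr17:57346949-57347500), lay the region with the largest difference between the effects. It went from 8.06, 14.0 and 8.97 CPM in WT-LSK to 0.547, 1.09 and 0.812 in URE-LSK, 12.7-fold, and from 24.6, 24.4 and 20.4 in WT-GMP to 15.6, 18.6 and 12.5 in URE-GMP, 1.49-fold. The difference was 3.09 (adjusted p = 3.9e-05), so that of these upstream regions one was low in both URE groups and the other nearly closed in URE-LSK and open in URE-GMP.

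**Figure D4:**
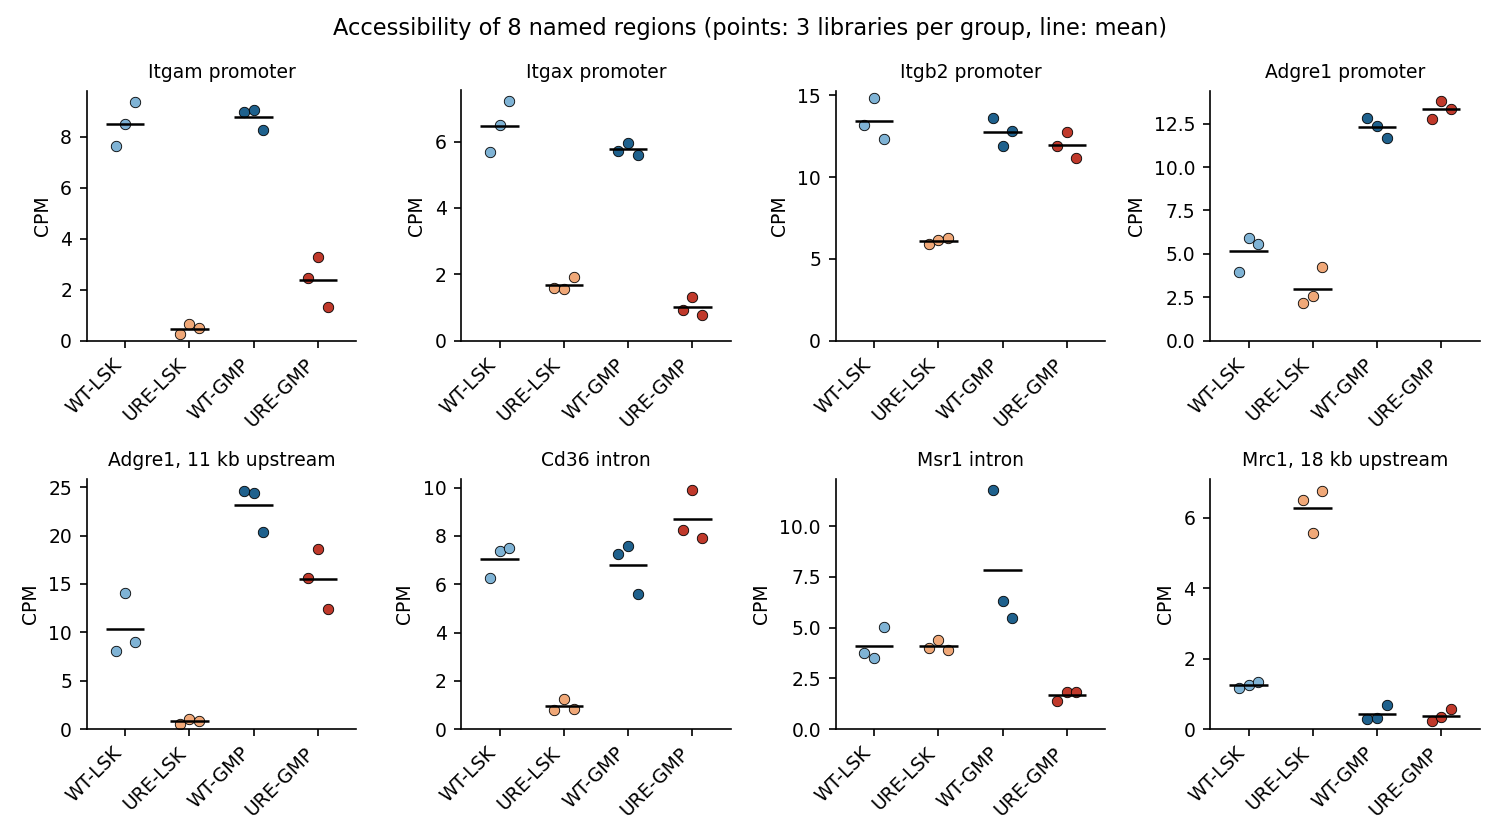
CPM (y axis, from 0) of 8 regions in the 4 groups, with 3 libraries as points and their mean as a line. The Itgam promoter is low in both URE groups, the Itgb2 promoter in URE-LSK alone, and the Mrc1 upstream region is high in URE-LSK alone.

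Mrc1, the mannose receptor gene (chr2:14229392-14332057, plus strand), had the larger loss in GMP by its sum, as Msr1 did. Summed over its regions it read 35.3, 41.1 and 36.6 CPM in WT-LSK against 27.9, 29.9 and 32.0 in URE-LSK, while GMP held 65.5, 66.03 and 60.8 in WT against 19.0, 25.1 and 18.9 in URE. The genotypes were apart in both, by -0.33 (SE 0.10, adjusted p = 0.012) in LSK, under the fold threshold, and -1.61 (SE 0.10, adjusted p = 5.7e-09) in GMP, with a difference of -1.28 (adjusted p = 2.7e-05). 7 of the 13 regions were called lower in LSK and 10 in GMP, with medians over the 13 of -1.57 and -1.92. The medians were thus closer to each other than the sums, and the LSK sum includes 1 region called higher. In the interaction 3 of the 13 were called, all lower. No region of the table lay within 500 bases of the annotated Mrc1 start.

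The Mrc1 region with the smallest p for a loss in LSK was intronic, 15471 bases past the start (chr2:14244680-14245046). It fell from 5.38, 6.36 and 5.29 CPM to 0.452, 0.754 and 0.619 in LSK and from 8.03, 6.94 and 6.55 to 0.581, 1.60 and 0.533 in GMP, with changes of -3.22 and -2.94 (adjusted p = 1.6e-06). The one with the smallest p in GMP lay 4798 bases upstream (chr2:14224413-14224776, intergenic, RUNX motif). It was hardly open in LSK, at 1.05, 1.26 and 0.402 CPM in WT and 0.0952, 0.0558 and 0.128 in URE, and reached 6.44, 8.08 and 7.28 CPM in WT-GMP but 0.689, 0.989 and 0.485 in URE-GMP (-3.31, adjusted p = 8.5e-07). The log2 fold change of GMP over LSK in WT was 3.07 (adjusted p = 2.6e-06). The most accessible region was intronic as well (chr2:14249782-14250535, CEBP motif), with 9.32, 11.3 and 7.92 CPM in LSK of WT mice and 2.38, 2.57 and 2.50 in those of URE mice, and in GMP 27.1, 26.5 and 24.1 and 6.05, 9.39 and 4.92 in the same order. It was lower in URE in both, by changes of -1.93 and -1.92 (adjusted p = 1.1e-06), which differed by 0.00 (SE 0.24, adjusted p = 0.99).

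A single Mrc1 region was called higher, in LSK. It lay 18480 bases upstream of Mrc1 in an intron of Tmem236 (chr2:14210761-14211063) and read 1.15, 1.26 and 1.33 CPM in WT-LSK and 6.50, 5.55 and 6.77 in URE-LSK, 5.01-fold higher (2.33, adjusted p = 5.1e-06). In GMP it read 0.293, 0.315 and 0.691 CPM in WT and 0.215, 0.347 and 0.557 in URE, where the genotypes overlapped near closure (-0.28, adjusted p = 0.54). The difference between the effects was -2.60 (adjusted p = 0.0018).

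Msr1, the class A scavenger receptor gene (chr8:39581685-39642673, minus strand), had 3 regions, all intronic, and none within 500 bases of a start. The sum of its regions was 4.91, 4.94 and 6.13 CPM in WT-LSK against 4.14, 4.58 and 4.04 in URE-LSK, while GMP held 18.7, 12.9 and 9.84 in WT against 1.66, 2.45 and 2.04 in URE. In LSK the change of -0.33 (adjusted p = 0.19) did not pass the test, although the libraries did not overlap, and in GMP the sum fell, with a change of -2.74 (SE 0.23, adjusted p = 6.3e-08). The effects differed by -2.40 (adjusted p = 7.1e-05). The region that holds the second sequence printed above (chr8:39594817-39595068) had the smallest p in both cell types. It read 1.10, 1.14 and 0.885 CPM in LSK of WT mice and 0.119, 0.0279 and 0.0641 in those of URE mice, and in GMP 3.14, 3.61 and 2.51 and 0.129, 0.226 and 0.0727 in the same order, with changes of -3.79 (adjusted p = 3.5e-06) and -4.35 (adjusted p = 2.4e-07). Few counts stood behind it, 42, 28 and 44 in WT-LSK and 5, 1 and 3 in URE-LSK. The most accessible region (chr8:39619566-39620107, AP-1 motif) overlapped between genotypes in LSK, at 3.73, 3.51 and 5.03 CPM in WT and 3.997, 4.41 and 3.91 in URE (0.00, adjusted p = 0.99). In GMP it read 11.8, 6.29 and 5.46 CPM in WT, where replicate 1 stood above the other two, and 1.38, 1.82 and 1.84 in URE (-2.21, adjusted p = 4.8e-06). Its effects differed by -2.20 (adjusted p = 9.7e-04).

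Cd36 (chr5:17781690-17888747, minus strand) was, like Itgam and Adgre1, lower in URE-LSK by the sum of its regions. Its summed level was 20.3, 21.3 and 21.7 CPM in WT-LSK against 5.09, 6.73 and 4.70 in URE-LSK, while GMP held 29.8, 31.8 and 22.1 in WT against 14.1, 19.9 and 12.5 in URE. The genotypes were apart in both cell types, by -1.95 (SE 0.18, adjusted p = 4.7e-07) in LSK and -0.84 (SE 0.17, adjusted p = 4.7e-04) in GMP. The difference of 1.10 (adjusted p = 0.0051) fell just below the fold threshold without URE-LSK replicate 3 (0.999) or URE-GMP replicate 2 (0.88). 6 of the 8 regions were called lower in LSK and 5 in GMP, and 4 in both. Cd36 has several annotated starts, and no region lay within 500 bases of any of them.

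The intronic Cd36 region that holds the third sequence (chr5:17839596-17839979) was the most accessible one. It fell from 6.25, 7.38 and 7.50 CPM in WT-LSK to 0.809, 1.23 and 0.833 in URE-LSK (-2.89, adjusted p = 2.8e-08). In GMP it read 7.24, 7.57 and 5.58 CPM in WT and 8.27, 9.91 and 7.92 in URE (0.36, adjusted p = 0.11), so the URE libraries lay slightly above those of WT without passing the test. The difference between the effects, 3.25 (adjusted p = 8.7e-06), was the largest in size among the 77 regions. Another intronic region (chr5:17854508-17854941, CEBP motif), which had the smallest p for a loss in GMP, fell in both cell types. It read 2.47, 2.90 and 1.75 CPM in LSK of WT mice and 0.167, 0.223 and 0.0641 in those of URE mice, and in GMP 8.79, 10.4 and 5.35 and 0.538, 2.13 and 0.388 in the same order, with changes of -3.98 and -2.95 (adjusted p = 5.3e-05).

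Whether the URE effect differed between LSK and GMP was tested by the interaction over all regions. 16 of the 77 regions were called higher, which means a smaller loss or a larger gain in GMP (20.8%, background 8.96%), and 6 lower (7.79%, background 5.03%). The 16 were 8 in the Itgam window, of which 3 shared with Itgax, 4 at Itgb2, 1 at Adgre1 and 3 at Cd36. The 6 were 2 at Itgb2, 3 at Mrc1 and 1 at Msr1, and without WT-GMP replicate 3 they numbered 3. Among the gene sums, those of Adgre1 and Cd36 were called higher (2 of 7, background 1.77%) and those of Mrc1 and Msr1 lower (2 of 7, background 1.53%). Without URE-LSK replicate 3 or URE-GMP replicate 2, 1 sum was called higher.

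The step from LSK to GMP was compared within each genotype. These comparisons use the same libraries as those above and are not independent of them. In WT, 26 of 77 regions were more accessible in GMP (33.8%, background 21%) and 6 less (7.79%, background 16.8%). In URE, 37 were more accessible in GMP (48.1%, background 27.6%) and 11 less (14.3%, background 21.6%). In WT mice all 7 gene sums lay higher in GMP than in LSK, with log2 fold changes of 0.40 to 1.36, and 1 was called, that of Msr1 (background 2.34%).

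In URE the step differed from gene to gene. The sums of Itgam (1.17, against 0.48 in WT), Adgre1 (2.16 against 0.69) and Cd36 (1.504 against 0.40) were called higher in URE-GMP than in URE-LSK (3 of 7, background 4.44%). That of Msr1 was called lower (-1.05, against 1.36 in WT; 1 of 7, background 7.34%), a call that was lost without URE-LSK replicate 2 (-0.99) or URE-GMP replicate 1 (-0.92). The sum of Mrc1 changed by -0.51 (adjusted p = 4.7e-04) in URE, against 0.77 (adjusted p = 1.4e-05) in WT. For Mrc1 and Msr1 the libraries of WT-GMP were the highest of the 4 groups and those of URE-GMP the lowest.

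The regions were also described by sequence. The PU.1 motif GAGGAAGT occurred within the 500 bases around the midpoint of 13 of 77 member regions (16.9%), against 10.2% of all regions, on either strand. The RUNX motif AACCACA occurred in 29.9% against 18.6%, the AP-1 motif TGANTCA in 26.0% against 17.1%, and the CEBP motif TTGCNNAA in 23.4% against 23.2%. Another ETS motif, CCGGAAGT, which shares its last 6 letters with that of PU.1, occurred in 2.60% against 1.69%, and the IRF motif in 5.19% against 7.68%. The motif shares of the members were read as descriptions, without a test, and the motifs named with single regions above are those inside the region itself.

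Of the 13 member regions with the PU.1 motif inside them, 11 were called lower in LSK and 6 in GMP. Over the whole table, 51.9% of the regions with the motif were called lower in LSK and 47.2% in GMP. The median change of the 13 was -2.40 in LSK and -0.86 in GMP, beside -1.13 and -0.91 over all regions with the motif, and 7 of the 13 had a smaller loss or larger gain in GMP by the interaction (18.3% of all regions with the motif). The 13 belonged to Itgam (6, of which 2 shared with Itgax), Itgb2 (2), Cd36 (2), and Adgre1, Mrc1 and Msr1 (1 each). Losses were called without the motif as well, since 30 of the 64 member regions without it were lower in LSK (46.9%, against 20.7% of all regions without it) and 29 in GMP (45.3% against 21.3%). Regions without the motif lack the exact letters GAGGAAGT and may hold other purine-rich sequences around a GGAA core.

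The counts were also split by position. Of the 63 member regions that lay nearest to the start of a member gene, 40 were called lower in LSK and 33 in GMP (63.5% and 52.4%, beside 23.9% and 24.1% of all regions). Of the 14 nearest to another protein-coding gene, which was Pttg1ip, Fam207a, Itgad or Slc39a12, 1 was called lower in LSK and 2 in GMP. 8 regions lay within 500 bases of an annotated start of any gene, and 5 of these were lower in LSK and 4 in GMP, against 7.68% and 8.25% of all 19118 such regions.

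Other genes of the same families were read in the same way, from lists chosen with earlier results of these data known. 11 integrin chains that are not members (among them Itgal, the alpha chain of LFA-1, and Itga4) had 165 regions. The window of Itgad, also on this list, holds the member region named above inside that gene, so the lists share at least this region. Of these, 44 were called lower in LSK (26.7%, background 23.9%) and 48 in GMP (29.1%, background 24.1%), near the background. Their median changes were 0.07 in LSK and -0.06 in GMP. Regions called higher made up 5.45% in LSK and 7.27% in GMP, below the background as for the members. Their gene sums changed by -0.28 to 0.35 in LSK and by -0.62 to 0.34 in GMP. A list of 16 other macrophage surface genes had 154 regions at 15 of them, of which 57 were lower in LSK (37.0%) and 47 in GMP (30.5%). The median changes of these regions were 0.04 in LSK and -0.02 in GMP. Higher calls were 9.74% in LSK and 11.04% in GMP there. 2 gene sums of the 15 were called lower in both cell types: Marco, a class A scavenger receptor like Msr1, at -1.93 in LSK and -1.02 in GMP, and Adgre4, a paralogue of Adgre1, at -2.50 and -4.25. Adgre4 fell further in GMP (-1.75, adjusted p = 3.4e-04), and Olr1, a lectin-like scavenger receptor, went from -0.84 in LSK to 0.59 in GMP (1.43, adjusted p = 2.0e-05).

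Promoters of cell type markers were read to see what the sorted fractions held. Of 8 neutrophil progenitor genes, such as Elane and Mpo, 7 were more accessible in GMP than in LSK in each genotype. Their summed promoter level was 92.6 to 98.9 CPM in WT-LSK and 88.5 to 107 in URE-LSK, and 265 to 364 in WT-GMP and 472 to 485 in URE-GMP. The sums of the GMP genotypes did not overlap, and 2 of the 8 genes, Ctsg and S100a9, were called higher in URE-GMP (4.79% of all promoter regions). In LSK 1 of the 8 was called higher (Ctsg) and 1 lower (S100a8), against 3.83% and 7.68% of all promoter regions. The 6 monocyte progenitor genes, such as Irf8 and Ly86, summed to 119.8 to 134 CPM in WT-GMP and 104 to 120.4 in URE-GMP. Of these, 1 of 6 was called lower in GMP (8.25% of all promoter regions) and 2 of 6 in LSK (7.68%). The 6 stem and early progenitor genes with a promoter region summed to 279 to 294 CPM in WT-LSK, 289 to 333 in URE-LSK, 212 to 241 in WT-GMP and 208 to 223 in URE-GMP. Of 4 basophil and mast cell genes 2 had a promoter region, of 4 erythroid and megakaryocyte genes 1, and of 4 lymphoid genes none. The part of a shift in these cell types in the changes at the member genes was not tested.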

How the data were processed

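ATAC-seq libraries of sorted LSK and GMP from 3 WT and 3 URE mice each (12 libraries in 4 groups, grouped by their labels) were analysed from 1 table of raw counts per open chromatin region, as deposited. According to the study's methods and processing notes, the authors trimmed reads with cutadapt, aligned them to GRCm38 with Bowtie2, removed duplicates and non-primary chromosomes, called peaks per group with Genrich, merged them with bedtools and counted with featureCounts. Since peaks were called per group, a region had to be open in at least 1 group to be counted. The unit of counting, fragments or read ends, is not given in the sources used here, and region starts were read as 0-based. Library totals of 23072701 to 62204826 counts set the counting precision, and a count of 0 allows up to 3 counts.

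Counts were fitted over all 12 libraries with edgeR 4.0.16 (R 4.3.3, glmQLFit and glmQLFTest, TMM scaling, two-sided, Benjamini-Hochberg adjustment over 121336 regions), 1 coefficient per group. filterByExpr kept every region. Calls needed an adjusted p under 0.05 and a log2 fold change beyond 1. Gene sums added the regions that overlapped a protein-coding gene body or its 20 kb flanks (18425 genes, GENCODE M21 basic), so a region shared by Itgam and Itgax counted for both. Standard errors are those implied by the fold change and its test.

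The members, lists and thresholds were chosen with earlier results of these data known. Regions named singly for each gene were the promoter region (within 500 bases of a start), the called region with the smallest p in each direction in each cell type, that with the smallest p in the interaction where called, and that with the highest mean CPM, 26 regions in all.

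Groups share replicate numbers. Deviations from the group means correlated over all regions between same-numbered WT-LSK and WT-GMP libraries (r = 0.150, 0.182 and 0.194), all above the 0.1 set for pairing, so each result was also fitted with a replicate block, whose effect is given under the dependence on processing. That block joins same-numbered WT and URE libraries, which come from different mice. A pairing of LSK with GMP within each genotype was not fitted, so the tests of the step and of the interaction treat LSK and GMP libraries as independent. In the other 3 pairs of groups at least 1 of 3 correlations was below 0.1. On the Y chromosome, 6 libraries had over 10 CPM: replicate 1 of WT and replicates 1 and 3 of URE, in LSK and GMP alike. Same-numbered LSK and GMP libraries of a genotype thus matched in this, while the genotypes were not balanced. A fit with that factor was added after the data were seen. The other alternatives were DESeq2 1.42.0, other scalings and offsets, other filters, thresholds and windows, fits to 2 groups, and fits without each library in turn.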

Additional observations from a re-analysis of the deposited data

Results flagged for a closer look

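The results in this part are those in which the effect of the URE deletion differed between LSK and GMP by the interaction test of edgeR (adjusted p under 0.05 over all regions or genes and a difference beyond 1), given as the log2 fold change in GMP minus that in LSK. Among the regions named singly, the difference was 2.32 at the Itgam promoter, 2.42 at the Itgam intron 3142 bases past the start and 2.02 at the internal Itgax exon. At Itgb2 it was 1.04 at the promoter, 2.08 at the intron 6607 bases past the start, -1.03 at the upstream region and -1.25 at the intron of Pttg1ip. It was 3.09 at the upstream region of Adgre1, -2.60 at the region upstream of Mrc1 in Tmem236, -2.20 at the most accessible Msr1 intron and 3.25 at the most accessible Cd36 intron. Over the gene sums it was 1.47 for Adgre1, 1.10 for Cd36, -1.28 for Mrc1 and -2.40 for Msr1. All 12 libraries entered each test, and what lies behind the differences was not tested.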

How the results depend on the processing

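Counts of member regions moved by over 1.5 times as follows, in each case from the count in the report. With a minimum mean CPM of 2, regions called lower numbered 26 in LSK and 17 in GMP, the WT step from LSK to GMP gave 16 higher and 2 lower, and the URE step 7 lower, with fewer regions tested. Over all 77944 regions tested there, 13400 were lower in LSK and 12975 in GMP. The WT step gave 12224 higher and 9821 lower among these, and the URE step 14144 lower. With the gene bodies alone there were 27 lower in LSK, 22 lower in GMP, 2 lower over the WT step, 5 lower over the URE step, 3 lower in the interaction, and 3 gene sums higher over the WT step. With 50 kb flanks 13 regions were higher in LSK and 13 in GMP, and with regions nearest the member's own start 7 were lower over the URE step. For regions, these choices change which ones count as members and not their calls. The shares over all regions thus stay as given above. A test against the fold threshold itself (glmTreat) left 4 higher in LSK, 1 higher in GMP, 17 higher and 3 lower over the WT step, 6 lower over the URE step, and 7 higher and 2 lower in the interaction. Over all 121336 regions it left 8650 higher in LSK, 11458 higher in GMP, and 17407 higher and 10945 lower over the WT step. The URE step then held 18561 lower, and the interaction 2948 higher and 755 lower. Without the fold threshold 16 were higher in LSK, 15 higher in GMP and 10 lower over the WT step. Over all regions these counts were 33840, 35940 and 34714 in the same order. Higher calls in LSK numbered 11 with loess offsets and 12 with GC content offsets, with or without the replicate block. Over all regions they numbered 26330 with loess offsets, 22057 with GC content offsets and 22225 with the block added to the latter. Loess offsets left 0 gene sums lower over the URE step, where that of Msr1 was -0.58. The cause of these shifts was not tested beyond the smaller sets of regions named. Over the fits without 1 library, higher calls in LSK ranged from 4 to 8 (4 without URE-LSK replicate 3), lower interaction calls from 3 to 7 (3 without WT-GMP replicate 3), gene sums lower in GMP from 2 to 4 (4 without URE-GMP replicate 2), gene sums lower over the URE step from 0 to 1 (0 without URE-LSK replicate 2 or URE-GMP replicate 1) and gene sums higher in the interaction from 1 to 2 (1 without URE-LSK replicate 3 or URE-GMP replicate 2). The remaining 260 of 288 counts of regions and 153 of 160 of gene sums stayed within that factor. The replicate block alone gave 7 higher and 42 lower regions in LSK, 6 and 35 in GMP, and 25 and 6 over the WT step, and moved no count of calls by over 1.5 times. TMM on promoter regions, in place of all, moved the median of all regions from 0.14 to -0.04 in LSK and from 0.06 to -0.08 in GMP.

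Of 1560 values of single regions under the alternatives, 1500 kept their sign and side of the thresholds, 26 fell below them and 10 passed them, and of 560 values of gene sums these were 539, 7 and 11. The replicate block alone changed no call of a single region or gene sum, but it does not test a pairing of LSK with GMP within each genotype. The sign turned in the following values, none of which had been called. In GMP the Adgre1 promoter was -0.00102 by library totals and -0.0196 by promoter TMM. The Tmem236 region upstream of Mrc1 was 0.44 with loess offsets, 0.13 with GC content offsets, 0.16 with the replicate block and GC content offsets, and in the fits without 1 library from -0.64 to 0.27, the latter without WT-GMP replicate 3. The Itgam intron 3142 bases past the start was 0.149 with GC content offsets and 0.154 with the replicate block added. The internal Itgax exon was -0.11 by library totals, -0.13 by promoter TMM, -0.0163 with the Y chromosome factor, and from -0.17 to -0.00394 in the fits without 1 library that turned it. The Msr1 intron in LSK was 0.0458 with DESeq2, 0.0437 with its size factors, 0.0566 with loess offsets, 0.374 with GC content offsets, 0.371 with the block added, and -0.158 to 0.118 without single libraries (above 0 without WT-LSK replicate 3 or URE-LSK replicate 1 or 3). The Itgb2 sum in LSK was -0.36 over the gene body and -0.0439 with loess offsets, and the interaction of the Itgax sum ranged from -0.0304 without URE-LSK replicate 2 to 0.173 without WT-LSK replicate 3.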
